A study of Mus musculus with 6 samples.

Results

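Axon guidance genes encode the semaphorins, ephrins and Slits, which are guidance ligands, and the plexins, Eph receptors, Robo receptors and Unc5 receptors that read them. They were followed in endothelial cells sorted from mouse liver. Members were taken by name: rows of the expression table whose symbol begins with Sema, Plxn, Epha, Ephb, Efna or Efnb, together with the Slit, Robo and Unc5 genes. This gave 63 of the 39179 rows. They carry 62 symbols, because Efna5 is listed under a pair of gene identifiers. A member was counted as expressed when it reached 1 CPM (reads of a gene relative to a scaled library size) in 3 or more libraries, and 31 of the 63 did.

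Mice were wild-type 129S6/SvEvTac males. All were put on a purified diet at 3 weeks of age, stayed on it for 4 weeks and were 7 weeks old at sampling. The control_iron group received 37 ppm iron, given as ferric citrate. The high_iron group received 10000 ppm, given as carbonyl iron. Each group has 3 libraries, described as biological replicates, and the labels do not say whether a library is 1 mouse or a pool. The gate took CD31+ CD146+ cells without CD45, lineage markers, MHCII or CD64. The comparison asks whether dietary iron loading changed expression of guidance genes in these cells.

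In the nervous system these ligands steer growing axons by attraction or repulsion, and in blood vessels the same molecules steer tip cells, set the border between artery and vein and tighten cell junctions. Semaphorins bind plexins, and the secreted class 3 semaphorins mostly need a neuropilin beside the plexin. Ephrins stay on the cell surface and signal to Eph receptor tyrosine kinases on the neighbouring cell, with signals passing in both directions. Slits bind Robo receptors, and netrins bind Unc5 receptors.

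Libraries held 12963510 to 21663543 reads in genes. Libraries of a group correlated at r = 0.964 to 0.988 over log2(CPM + 1) of the genes tested, and libraries of different groups at 0.951 to 0.981. The labelled cell type was checked against 12 liver endothelial genes. All 12 passed the expression threshold, and their summed level was 23096 to 24415 CPM in control_iron and 21485 to 22214 CPM in high_iron, led by the scavenger receptors Stab1 and Stab2. This sum was lower in every high_iron library. Log2 fold changes were negative for 10 of the 12 and positive for 2. Groups did not overlap for 5 of them, in either direction (41.7%, beside 17.9% of all genes). limma called 0 of the 12, beside 1.02% of all genes, and edgeR 0, beside 0.863%. DESeq2 called 1, Lyve1, beside 3.27% of all genes. Lyve1 was higher in high_iron, with means of 220 and 339 CPM and a DESeq2 adjusted p of 0.026. The 14 Kupffer cell and macrophage markers summed to 77.1, 180 and 94.9 CPM in control_iron and to 522, 262 and 360 CPM in high_iron, so the groups did not overlap. All 14 had positive log2 fold changes. At a Benjamini-Hochberg adjusted p under 0.05 limma called 3 of them higher, beside 0.832% of all genes. edgeR called 2, beside 0.863% of all genes in either direction, and DESeq2 10, beside 2.53% of all genes higher. In bulk RNA, fewer cells of a type and less RNA per cell cannot be told apart.

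The group was dominated by a few receptors and ligands, with 1 gene making up most of nearly every family. Levels between genes are compared as RPKM, that is CPM per kilobase of gene length, averaged over the 6 libraries. Robo4, the Robo receptor known from endothelium, had 204 RPKM, and Plxnc1, the plexin that binds Sema7a, had 199 RPKM. Their order turned with the diet: Robo4 was above Plxnc1 in each control_iron library (means 216 ± 18.0 and 188 ± 14.6 RPKM, SD, n = 3 each) and below it in each high_iron library (192 ± 13.7 and 210 ± 15.7 RPKM). This turn was not tested. Ephb4, the Eph receptor of venous endothelium, had 144 RPKM and lay below Plxnc1 without overlap. Plxnd1, a plexin with a known part in vessel patterning, had 89.4 RPKM and Sema3f, a secreted semaphorin, 89.2 RPKM, and these did not differ beyond their spread. Efna1 came next at 58.0 RPKM, below Sema3f in every library, and then Sema6a at 50.3, Efnb1 at 42.2, Sema6b at 23.8, Sema6d at 21.7, Sema4c at 20.4, Efnb2 at 18.5, Plxna2 at 14.1, Plxnb2 at 13.7, Robo1 at 9.43, Epha2 at 8.51, Sema4b at 7.11 and Sema4a at 5.58 RPKM. From Efna1 downward, the only neighbours in this order whose library ranges were apart were Efnb1 and Sema6b. The other 13 expressed members lay between 0.127 RPKM for Plxnb1 and 4.46 RPKM for Plxna1.

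**Figure D1:**
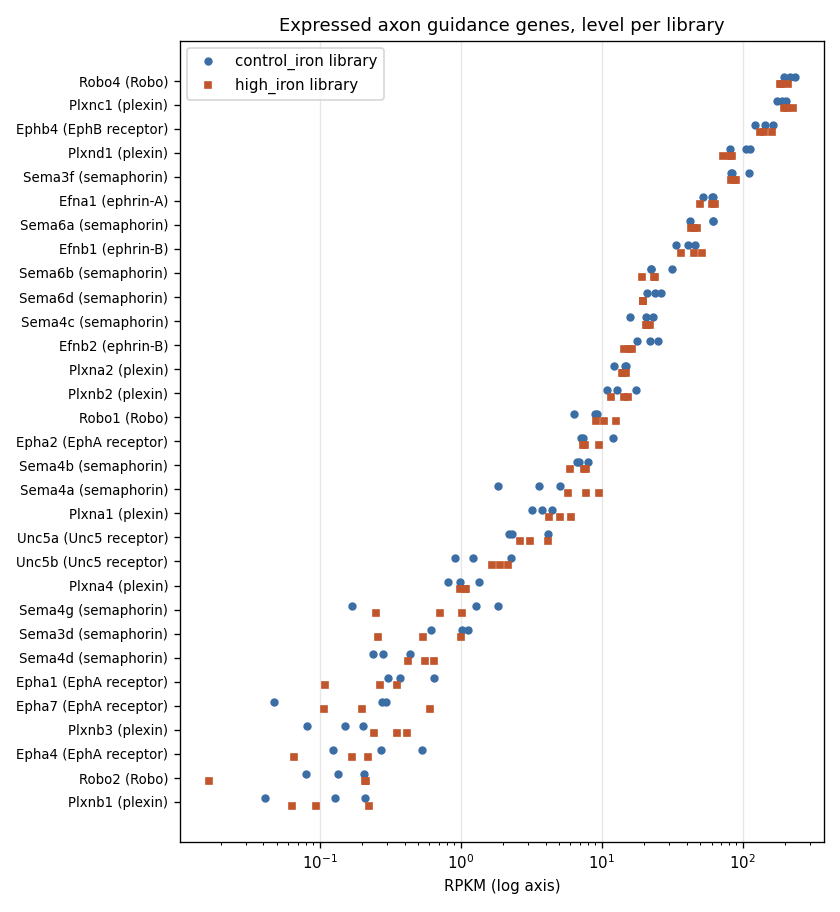
Level of each of the 31 expressed axon guidance genes in each library, as RPKM on a log axis, with control_iron libraries as circles and high_iron libraries as squares. Genes are ordered by their mean over the 6 libraries, from Robo4 (204 RPKM) down to Plxnb1 (0.127 RPKM), and the groups interleave for most genes.

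Within families, Ephb4 made up 99.95% of the summed EphB RPKM, Efna1 99.6% of the ephrin-A sum and Robo4 95.5% of the Robo sum. Epha2 held 90.8% of the EphA sum, Efnb1 69.4% of the ephrin-B sum, Unc5a 64.6% of the Unc5 sum and Plxnc1 61.8% of the plexin sum. The semaphorins were more evenly spread, with Sema3f at 40.5%. By number, 10 of 20 semaphorins and 8 of 9 plexins were expressed, against 4 of 9 EphA receptors, 1 of 5 EphB receptors, 1 of 6 ephrin-A rows, 2 of 3 ephrin-B genes, 3 of 4 Robo receptors, 2 of 4 Unc5 receptors and 0 of 3 Slits.

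Several abundant receptors had little RNA of their best-known ligands beside them. The Slits, ligands of the Robo family, stayed at or below 1.30 CPM. Slit2 had 1.30, 0 and 0.228 CPM in control_iron and 0.513, 0 and 0 CPM in high_iron, while Slit1 had 4 reads and Slit3 14 reads over all 6 libraries. Sema7a, the ligand of Plxnc1, had 5 reads in total, all in control_iron replicate 1. Sema3e, a ligand of Plxnd1, had 7 reads, all in control_iron. A count of 0 allows up to 3 reads, which is 0.139 CPM in the deepest library and 0.231 CPM in the shallowest, counting error only. On the ephrin side, the matching pairs were both present, with Efnb2 beside its receptor Ephb4 and Efna1 beside its receptor Epha2.

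Of the 32 members that were not expressed, 5 had no read in any library (Epha6, Epha8, Unc5c, Sema4f and 1 of the Efna5 identifiers) and 27 had some reads. Nearest above the threshold were Epha1 and Plxnb1, each at 1 CPM or more in exactly 3 libraries. Nearest below was Sema3a, at 1.09 and 1.027 CPM in its 2 highest libraries, followed by Robo3, Slit2 and Sema6c, each past 1 CPM in 1 library.

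Abundant and near-silent members can lie side by side in the genome (GENCODE M21 on GRCm38). Robo4 (chr9:37401897-37415115, plus strand) and Robo3 (chr9:37415669-37433246, minus strand), a Robo receptor best known from commissural axons, are 553 bases apart with their 3′ ends facing, at 204 and 0.111 RPKM. Efna1 (58.0 RPKM) shares a stretch of chromosome 3 with Efna3 (0.0035 RPKM), 32756 bases away, and Efna4 (0.033 RPKM), 52247 bases away. Sema3f (89.2 RPKM) and Sema3b (0.034 RPKM) are 72270 bases apart on chromosome 9. For the Robo4 and Robo3 neighbours, the stretch just upstream of each annotated gene start is shown 5′ to 3′ on the gene's own strand, with CpG dinucleotides in capitals, because they are the closest of the neighbouring pairs and differ sharply in level. The sequences are from RefSeq promoter windows of build GRCm38.p6. Robo4 spans chr9:37401722-37401896 on the plus strand, and Robo3 spans chr9:37433247-37433425 on the minus strand.
Robo4: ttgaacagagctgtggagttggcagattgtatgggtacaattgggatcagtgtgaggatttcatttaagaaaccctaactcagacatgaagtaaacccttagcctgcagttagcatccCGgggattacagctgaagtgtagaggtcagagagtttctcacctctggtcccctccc
Robo3: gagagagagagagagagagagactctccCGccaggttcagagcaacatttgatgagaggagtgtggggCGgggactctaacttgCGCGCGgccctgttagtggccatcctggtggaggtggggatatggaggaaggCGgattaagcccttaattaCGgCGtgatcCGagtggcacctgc
The 175 bases of Robo4 hold 1 CpG and the 179 bases of Robo3 hold 9, with a GC content of 47.4% and 58.1%. RefSeq windows of 250 bases before a transcript start were also counted, of which 22 of 54 reach into the annotated gene because that start lies downstream of the gene's own. The 27 expressed members with a window had a median of 15 CpG (range 1 to 30) and the 27 not expressed a median of 17 (range 2 to 46), against 6 over all 32851 windows. Fewer than 5 CpG were found in 5 of the expressed and 2 of the other members, and in 44.4% of all windows.

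None of the 31 expressed members passed the diet comparison at an adjusted p under 0.05 (limma with Benjamini-Hochberg adjustment over 12980 genes), where 1.02% of all genes tested were called (0.832% higher and 0.193% lower). At an unadjusted limma p under 0.05 there were 5 members, Sema4a, Plxnb3, Sema4d and Plxna1 with higher values in high_iron and Efnb2 with lower values, which is 16.1% of members beside 12.1% of all genes (7.3% higher and 4.82% lower). edgeR called 0 members, beside 0.863% of all genes, and DESeq2 called Sema4a alone, beside 3.27% of all genes (2.53% higher and 0.74% lower). Groups did not overlap for 4 members (12.9%), Sema4a and Plxnb3 with high_iron above and Efnb2 and Sema6d with it below, beside 17.9% of all genes (9.46% above and 8.44% below). Plxnb3, counted in both of these shares, entered the test mainly through its high_iron libraries, which favours a rise. Nothing is read from the shares. Log2 fold changes of log2(CPM + 1) were positive for 16 members and negative for 15, with a median of 0.017 beside -0.0034 over all genes tested. The 95% interval of the fold change lay within 2-fold in both directions for 21 members (67.7%), beside 80.8% of all genes. Of the other 10, Sema4a was 1, and 9 had a mean level under 10 CPM: Plxnb3, Sema4d, Sema3d, Epha1, Epha4, Unc5b, Sema4g, Epha7 and Robo2.

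**Figure D2:**
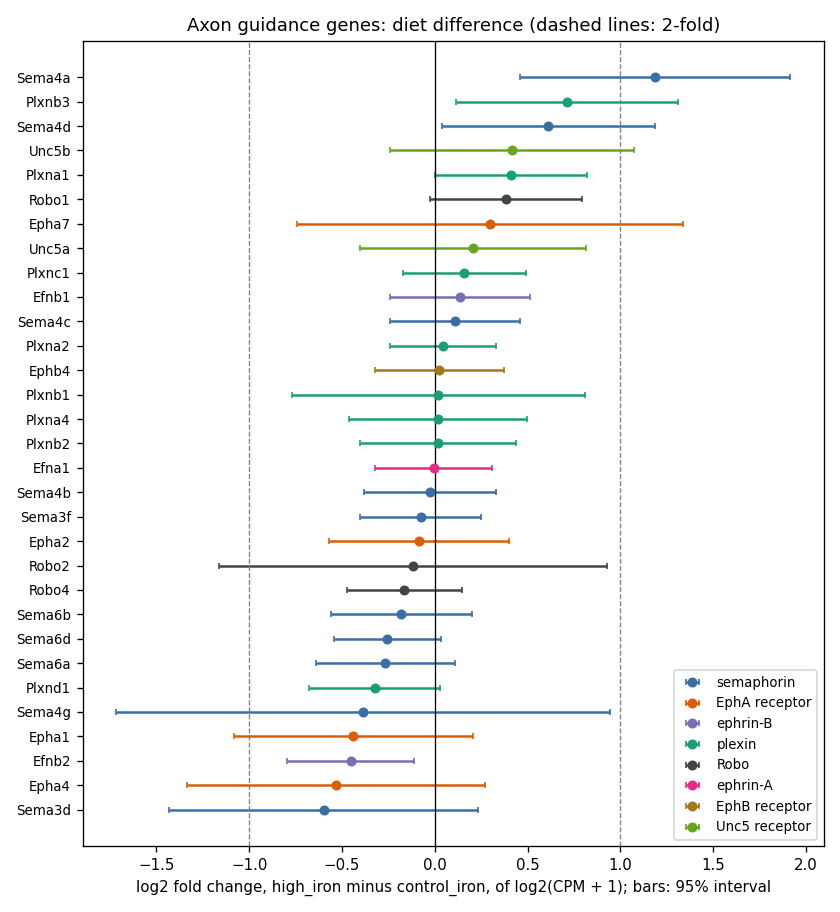
Difference between the diets for each of the 31 expressed members, as the log2 fold change of log2(CPM + 1), high_iron minus control_iron, with 95% intervals from limma and dashed lines at 2-fold. Sema4a is farthest to the right at 1.19, and 21 intervals lie between the dashed lines.

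Among the ligands, the largest difference was in Sema4a (chr3:88435959-88461182, minus strand), a membrane-bound semaphorin known from immune cells and as an inhibitor of angiogenesis through Plxnd1. Its level was 11.9, 33.0 and 23.3 CPM in control_iron and 50.2, 62.7 and 37.7 CPM in high_iron. Every high_iron library was above every control_iron library, and the means were 22.7 ± 10.5 and 50.2 ± 12.5 CPM (SD, n = 3 each). The log2 fold change was 1.19 with an SE of 0.33 and a 95% interval of 0.46 to 1.91, and the adjusted p was 0.156 with limma, 0.215 with edgeR and 0.019 with DESeq2. Leaving out 1 library at a time gave log2 fold changes of 0.80, without control_iron replicate 1, to 1.499, without control_iron replicate 2, and limma adjusted p-values of 0.085 to 0.514. The macrophage marker sum was likewise higher in every high_iron library, and its part in the Sema4a values was not tested.

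Sema4d, a close relative that binds Plxnb1 and is also known from T cells, had 2.08, 2.46 and 3.82 CPM in control_iron and 4.88, 3.71 and 5.61 CPM in high_iron. The groups overlapped, since control_iron replicate 3 lay above high_iron replicate 2, and limma gave a log2 fold change of 0.61 ± 0.26 (SE) with an adjusted p of 0.384. The T cell genes Cd3e and Cd3d stayed at or below 0.354 CPM, and Cd3e had no reads in 4 libraries. Cd79b, of the same list of 7 lymphocyte markers, had group means of 0.907 CPM in control_iron and 3.22 CPM in high_iron. Ms4a1, Ncr1 and Nkg7 were, like Cd79b, higher in high_iron without overlap, as were 9.46% of all genes tested. Ncr1 and Nkg7 were below the expression threshold, with group means of at most 0.87 CPM. Ms4a1 passed the threshold only through its high_iron libraries, and Cd79b mainly so, which favours a rise. The sum of the 7 was 1.72 to 3.59 CPM in control_iron and 7.07 to 9.19 CPM in high_iron, without overlap. Its part in the Sema4d values was not tested.

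Sema6d, a transmembrane semaphorin that binds Plxna1, had 216, 172 and 198 CPM in control_iron and 163 CPM in each high_iron library. The groups did not overlap, yet the log2 fold change was only -0.26 ± 0.13 (SE) with a limma adjusted p of 0.456. Sema6a, a ligand of Plxna2 and Plxna4, had 531, 365 and 533 CPM in control_iron and 411, 372 and 388 CPM in high_iron, so that control_iron replicate 2 fell below all high_iron libraries. Sema3f, which signals through Nrp2, had 371, 281 and 279 CPM against 279, 293 and 304 CPM, with control_iron replicate 1 standing above the rest. The limma adjusted p was 0.542 for Sema6a and 0.852 for Sema3f, with 95% intervals of the log2 fold change of -0.64 to 0.11 and -0.40 to 0.25. The remaining expressed semaphorins, Sema3d, Sema4b, Sema4c, Sema4g and Sema6b, had log2 fold changes of -0.60 for Sema3d to 0.11 for Sema4c and overlapped between groups.

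**Figure D3:**
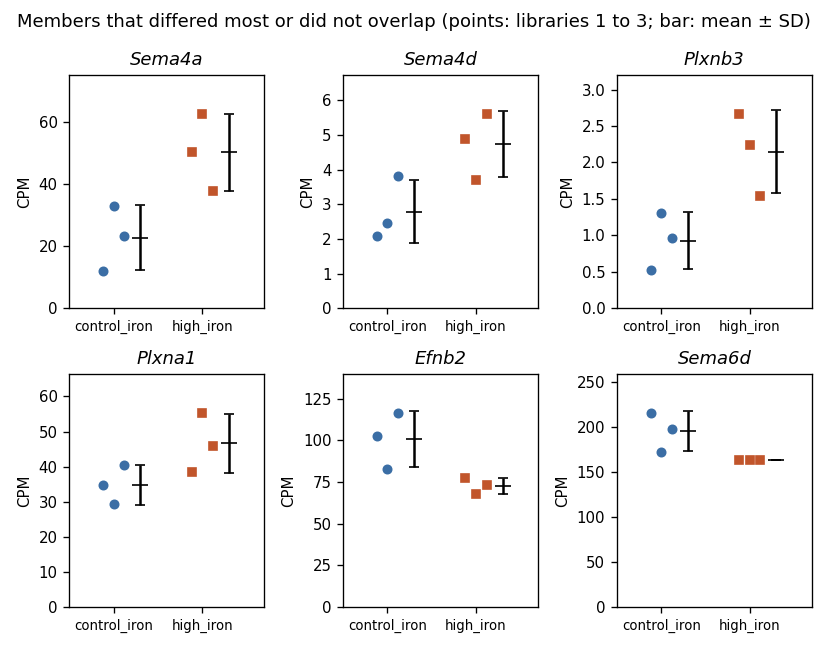
CPM per library of the 5 members at an unadjusted p under 0.05 and of Sema6d, whose groups do not overlap, with the mean and SD of 3 libraries as bars. High_iron points lie above all control_iron points for Sema4a and Plxnb3, below them for Efnb2 and Sema6d, and overlap for Sema4d and Plxna1.

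Efnb2 (chr8:8617434-8661242, minus strand), the transmembrane ephrin that marks arterial endothelium and binds Ephb4, had 102, 83.1 and 117 CPM in control_iron and 77.3, 67.7 and 73.3 CPM in high_iron. Each high_iron library was below each control_iron library, with means of 101 ± 16.9 and 72.7 ± 4.81 CPM (SD, n = 3 each). The log2 fold change of -0.45 (95% interval -0.80 to -0.11) had a limma adjusted p of 0.266, 0.271 with edgeR and 0.161 with DESeq2. The sum of 8 arterial genes, which includes Efnb2, was 719, 730 and 765 CPM in control_iron and 751, 675 and 703 CPM in high_iron, and those groups overlapped. Of the 6 that were expressed, 4 had negative and 2 positive log2 fold changes. Groups did not overlap for 2 of them, Efnb2 and Sox17, both lower in high_iron (33.3%, beside 17.9% of all genes). Efnb1, the other expressed B-class ephrin, had 158, 116 and 141 CPM against 126, 156 and 177 CPM and overlapped in part, with high_iron replicate 3 above and control_iron replicate 2 below all libraries of the other group. Efna1, a membrane-anchored ligand of Epha2, had 140, 165 and 164 CPM against 170, 134 and 163 CPM. Its log2 fold change was the smallest of the members in size, at -0.0065 with a 95% interval of -0.32 to 0.31 (limma adjusted p 0.989).

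Of the plexins, Plxnb3, which binds Sema5a, was barely expressed, at 0.519, 1.30 and 0.968 CPM in control_iron and 2.67, 2.24 and 1.54 CPM in high_iron. It passed 1 CPM in 1 control_iron library and in all 3 high_iron libraries, which is how it entered the test, and its log2 fold change of 0.71 ± 0.27 (SE) had a limma adjusted p of 0.333. On the recovered reads the log2 fold change was larger, at 1.196 with edgeR (adjusted p 0.351) and 1.21 with DESeq2 (adjusted p 0.344). Plxna1, a receptor of class 3 semaphorins with neuropilin and of Sema6d, had 34.7, 29.3 and 40.4 CPM against 38.5, 55.4 and 46.0 CPM. The groups overlapped in high_iron replicate 1, and the log2 fold change was 0.41 ± 0.18 (SE) with a limma adjusted p of 0.412. The antisense gene Gm26811 covers 10.7% of the Plxna1 exons, and the library kit does not keep strand, so reads of the 2 genes cannot be separated there.

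The abundant plexins differed less. Plxnc1 had 1353, 1471 and 1581 CPM in control_iron and 1607, 1775 and 1537 CPM in high_iron, with a 95% interval of the log2 fold change of -0.17 to 0.49 (limma adjusted p 0.684). Plxnd1 had 817, 586 and 755 CPM against 524, 602 and 583 CPM, with control_iron replicate 2 among the high_iron values, and an interval of -0.68 to 0.028 (limma adjusted p 0.441). Plxna2, Plxna4, Plxnb1 and Plxnb2, receptors of class 4 and 6 semaphorins, had log2 fold changes of 0.017 to 0.042. Plxna3, below the expression threshold and so outside the test, had 0.779, 0.604 and 0.513 CPM in control_iron and 0.411, 0.413 and 0.308 CPM in high_iron.

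Ephb4, the partner of Efnb2, had 833, 733 and 622 CPM in control_iron and 718, 822 and 675 CPM in high_iron. The high_iron values lay within the range of control_iron, with a 95% interval of the log2 fold change of -0.33 to 0.37 (limma adjusted p 0.963). The sum of 6 venous and large-vessel genes, which includes Ephb4, was 2254, 1931 and 2278 CPM in control_iron and 1703, 1616 and 1488 CPM in high_iron. These sums did not overlap. Log2 fold changes were negative for 5 of the 6 and positive for 1. Groups did not overlap for 2 of them, Ackr1 and Nr2f2, both lower in high_iron (33.3%, beside 17.9% of all genes). limma called 0 of these 6, beside 1.02% of all genes. At an unadjusted limma p under 0.05, 2 were lower, beside 4.82% of all genes. DESeq2 called Ackr1 and Nr2f2 lower, beside 0.74% of all genes. Epha2, the main receptor of Efna1, had 33.4, 34.1 and 56.3 CPM against 34.1, 35.3 and 44.4 CPM, with replicate 3 of each group highest, and an interval of -0.57 to 0.40 (limma adjusted p 0.893). The other expressed EphA receptors, Epha1, Epha4 and Epha7, had group means of 0.793 to 2.34 CPM. Epha7 had 0.364, 2.14 and 2.28 CPM against 0.821, 4.66 and 1.54 CPM, and its interval of -0.74 to 1.34 spans more than 2-fold upward.

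Robo4 had 979, 828 and 916 CPM in control_iron and 782, 876 and 772 CPM in high_iron, with means of 908 ± 75.9 and 810 ± 57.5 CPM (SD, n = 3 each). High_iron replicate 2 lay above control_iron replicate 2, and the log2 fold change was -0.16 with a 95% interval of -0.47 to 0.15 (limma adjusted p 0.647). Robo1, which binds Slits directly, had 69.2, 48.0 and 67.8 CPM against 68.4, 78.1 and 94.6 CPM, with a log2 fold change of 0.38 ± 0.18 (SE) and a limma adjusted p of 0.439. The netrin receptor Unc5b, a known binding partner of Robo4 in vessels, had 5.35, 7.15 and 13.3 CPM against 11.04, 9.73 and 12.7 CPM. Unc5a, better known from neurons, had 8.42, 15.1 and 7.92 CPM against 11.2, 15.03 and 9.61 CPM. Both overlapped, with limma adjusted p-values of 0.587 and 0.771.

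For Robo2, Epha7, Plxnb1 and Sema4g the lowest 2 of the 6 libraries were the replicates 1 of both diets. This set was picked after its values were seen. How many of all genes share this order was not counted, so nothing particular to the members is read from it. Sema4g had 0.831, 6.36 and 9.06 CPM in control_iron and 1.23, 5.01 and 3.54 CPM in high_iron, and Robo2 had 1.25, 3.20 and 2.11 CPM against 0.257, 3.24 and 3.31 CPM. The sum of 8 stellate cell and fibroblast genes was 287, 933 and 470 CPM in control_iron and 451, 1049 and 806 CPM in high_iron. The 7 hepatocyte genes found summed to 146, 595 and 379 CPM and to 349, 630 and 511 CPM. The lowest 2 libraries of both sums were also the replicates 1, and their part in the values of these 4 members was not tested.

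**Figure D4:**
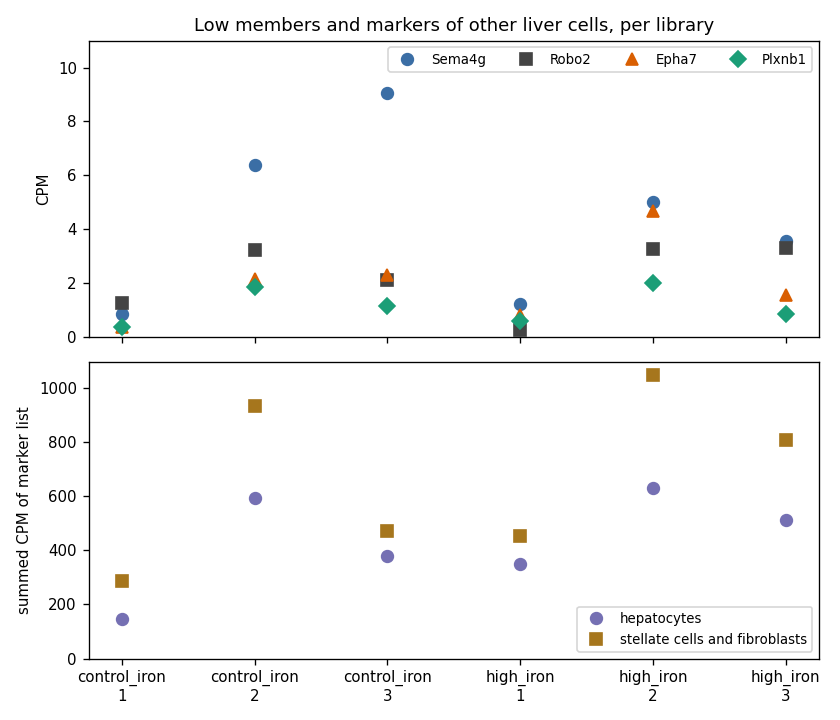
Upper panel, CPM per library of Sema4g, Robo2, Epha7 and Plxnb1; lower panel, summed CPM per library of the hepatocyte list and of the stellate cell and fibroblast list. In both panels replicate 1 is the lowest library of each group, for example 0.831 CPM for Sema4g and 146 CPM for the hepatocyte sum in control_iron.

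The surrounding pathway was described through 66 partner genes, namely neuropilins, netrins and other netrin receptors, and effectors inside the cell, of which 52 were expressed. limma and edgeR called 0 of the 52, beside 1.02% and 0.863% of all genes, and DESeq2 called 2, Flrt3 and Ntn4, both lower in high_iron, beside 3.27% of all genes (0.74% lower). At an unadjusted limma p under 0.05 there were 8 (15.4%, beside 12.1% of all genes), with Vav2 and Rhod higher and Flrt3, Ntn4, Neo1, Srgap1, Dpysl2 and Mical2 lower. The median log2 fold change of the 52 was 0.0042.

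Ntn4, a secreted netrin found in vessel basement membranes, had 281, 190 and 182 CPM in control_iron and 114, 112 and 140 CPM in high_iron. These groups did not overlap, and the log2 fold change of -0.81 (95% interval -1.22 to -0.40) had an adjusted p of 0.081 with limma and 0.0025 with DESeq2. Flrt3, a membrane protein that binds Unc5 receptors, had 7.53, 5.20 and 8.71 CPM against 3.23, 1.71 and 0.615 CPM, also without overlap. Its log2 fold change was -1.60 (95% interval -2.39 to -0.81), with an adjusted p of 0.074 with limma and 0.0078 with DESeq2. Neo1, a receptor of netrins and of repulsive guidance molecules, had 11.6, 10.03 and 6.95 CPM against 4.57, 4.66 and 5.61 CPM, with a log2 fold change of -0.80 and a limma adjusted p of 0.182. Ntng2, next to Ntn4 the most abundant of the class, had group means of 62.3 ± 4.89 and 51.2 ± 0.91 CPM (SD, n = 3 each).

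Nrp1, the neuropilin that also serves as a co-receptor of VEGF, had 4284, 3934 and 5139 CPM in control_iron and 3523, 3332 and 3945 CPM in high_iron. The groups overlapped by a narrow margin, with a 95% interval of the log2 fold change of -0.72 to 0.12 (limma adjusted p 0.540), and Nrp2 had means of 442 ± 77.3 and 440 ± 25.8 CPM (SD, n = 3 each). Among effectors, Vav2, an exchange factor recruited by activated Eph receptors, had 32.8, 24.0 and 26.8 CPM against 35.6, 50.3 and 42.2 CPM, without overlap and with a limma adjusted p of 0.211. Rhod, a small GTPase, had a log2 fold change of 0.47, and the adaptor and enzyme genes Srgap1, Dpysl2 and Mical2 had -0.48, -0.33 and -0.38, each with a limma adjusted p of 0.347 to 0.379. The most abundant effectors of each class, Fyn, Rras, Arhgef15, Sdcbp, Srgap2 and Dag1, had log2 fold changes of -0.29 for Rras to 0.47 for Dag1.

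**Figure D5:**
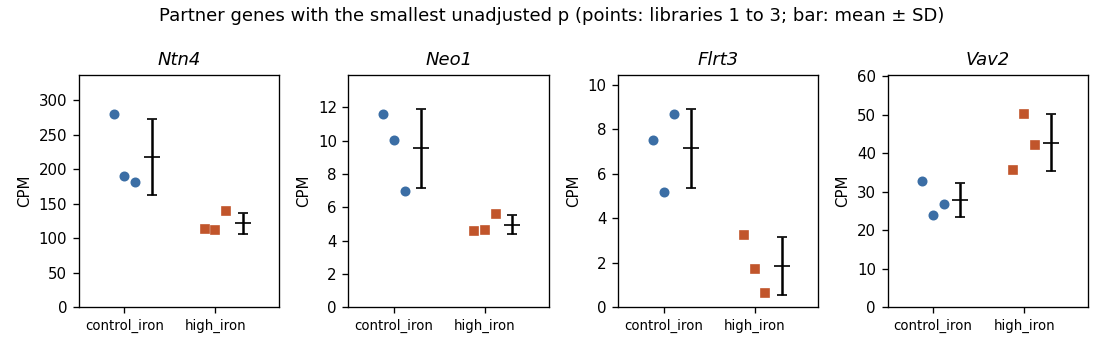
CPM per library of the 4 partner genes with the smallest unadjusted p, with the mean and SD of 3 libraries as bars. High_iron libraries lie below all control_iron libraries for Ntn4, Neo1 and Flrt3 and above them for Vav2.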

How the data were processed

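Per the labels' protocols, column-purified RNA of the sorted cells was turned into libraries with a low-input kit, which keeps no strand. STAR, HTSeq, edgeR and build mm10 are named in the submitters' processing notes. Which annotation was counted is not given in the sources used here. As values the authors deposited a normalised signal named CPM, reads over a scaled library size, and RPKM values, which equal CPM per kilobase of the deposited gene length. Each of the 114253 CPM values above 0 was a whole multiple of what 1 read is worth within 0.001 read (100%), so reads were recovered. Depth was 12963510 to 21663543 reads per library.

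Genes at 1 CPM or more in at least 3 libraries (12980) were tested in R 4.3.3 on log2(CPM + 1) with limma 3.58.1, two-sided, with group as the sole term and a variance trend, and Benjamini-Hochberg adjustment over all of them at 0.05. Fold changes on this scale understate changes of low genes. The p-values weigh the difference between groups against the spread between these libraries. edgeR 4.0.16 (quasi-likelihood) and DESeq2 1.42.0 on the recovered reads were alternatives, as were pseudocounts of 0.1 and 0.5, no filter, a filter at 5 CPM, plain library totals, edgeR with RLE scaling, a replicate block and leaving out each library. The 95% intervals are limma's and rest on the spread between libraries, while the 3-read floor covers counting error only.

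The members and gene lists were chosen with earlier results of these data known. All libraries are given for members called by any tool, for those at an unadjusted p under 0.05 and for the 2 most abundant expressed members of each family. Partner genes are named if at an unadjusted p under 0.05 or among the 2 most abundant of their class. Of 135 listed partner and marker genes, 134 were found, 2 under another symbol. RefSeq promoter windows were matched by symbol for 54 of 62 member symbols.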

Additional observations from a re-analysis of the deposited data

How the results depend on the processing

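limma called 0 members and 0 partner genes. The counts were 1 member (Sema4a) and 2 partner genes (Flrt3 and Ntn4) with DESeq2, and 1 and 2 with the replicate block (402 of all 12980 genes), and 0 under each other alternative, leaving out each library included. Same-numbered libraries of the 2 groups deviated together at r = 0.128, 0.320 and 0.0625, and nothing in the labels says what the numbers share, so they were not taken as pairs. Control_iron replicate 3 correlated best with high_iron replicate 1. With the replicate block the adjusted p was 0.0045 for Sema4a, 0.0176 for Ntn4 and 0.0038 for Flrt3, with limma. Of 578 log2 fold changes recomputed for 39 genes, 539 kept their direction and side of the threshold, 6 passed it (Sema4a, Ntn4 and Flrt3, with DESeq2 and the block) and 33 changed sign. These 33 fall in 13 members, whose log2 fold changes were at most 0.39 in size. Robo2 turned to 0.025 with edgeR, 0.034 with edgeR and RLE scaling and 0.046 with DESeq2. Plxna4 turned to -0.016, -0.0057 and -0.0052, in the same order, and Plxnb2 to -0.0062 with edgeR. Leaving out 1 library gave ranges of -0.21 to 0.16 for Epha2, -0.17 to 0.65 for Epha7, -0.086 to 0.12 for Ephb4, -0.42 to 0.47 for Robo2, -0.083 to 0.096 for Efna1, -0.045 to 0.096 for Plxna2, -0.14 to 0.20 for Plxna4, -0.27 to 0.27 for Plxnb1, -0.13 to 0.20 for Plxnb2, -0.15 to 0.059 for Sema3f, -0.089 to 0.084 for Sema4b, -0.047 to 0.22 for Sema4c and -1.13 to 0.099 for Sema4g. The cause was not tested. Of the members with intervals past 2-fold, 9 were under 10 CPM. With all libraries kept, the largest log2 fold changes over the alternatives were over 1.5 times those reported for several members. Among them were Plxnb3 (1.21 against 0.71), Epha1 (-0.88 against -0.44), Epha4 (-1.05 against -0.53), Sema4g (-0.75 against -0.39) and Epha7 (0.56 against 0.30). Robo2 reached -0.42 with a pseudocount of 0.1, against -0.12. Smaller in size were Plxnb1 (0.078 against 0.019), Epha2 (-0.14 against -0.086) and Efna1 (-0.015 against -0.0065).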

Other observations

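Control_iron replicate 1 was the highest library for 12 of the 31 expressed members and for 9 of the 27 members with reads below the expression threshold. Among the latter were Slit2 at 1.30 CPM, Slit3 at 0.571 CPM, and Sema3g and Sema3b at 0.727 CPM each, where the other libraries had at most 0.513, 0.177, 0.057 and 0.154 CPM. The same count was not made over all genes, so nothing particular to the members is read from it. Vwf and Gja5, from the large-vessel and arterial lists, stood apart in control_iron replicate 1. Vwf had 138 CPM, against 15.04 to 31.7 CPM elsewhere, and Gja5 had 8.83 CPM, against 0.171 to 1.77 CPM elsewhere. Other genes of these lists did not all follow. Bmx, below the expression threshold, also stood apart there, at 2.23 CPM against at most 0.325 CPM elsewhere, and so did Sema3g, as given above. Sox17, Hey1, Thbd and Ephb4 were highest there by smaller margins. Gja4 was lowest there, at 164 CPM, and Dll4, Efnb2, Ackr1, Nr2f2 and Selp were highest in other libraries. The genes named here were picked after their values were seen, and the part of large-vessel cells in the member values was not tested.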
